A study of Mus musculus with 16 samples.

Results

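Retinas of 12-day-old BALBc mice that had breathed 75% oxygen from day 7 (hyperoxia) were compared with retinas of BALBc mice of the same age kept in room air (normoxia), across all genes. There were 4 hyperoxia and 4 normoxia libraries, 8 of the 16 in the series, and all came from total RNA of whole retina. The other 8 libraries, 4 hyperoxia and 4 normoxia, came from C57 mice under the same exposure and are used here only where the response of the strains is set side by side. The study asked which metabolic changes go with resistance to oxygen-induced retinopathy, but the labels do not say which strain resists, nor that each library is a separate animal. The p-values below therefore measure the spread between these libraries, which may be partly technical.

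In the oxygen-induced retinopathy model, high oxygen during the days when the inner vessels of the mouse retina are still growing stops their growth and makes capillaries regress, and a return to room air then leaves the tissue short of oxygen. Cells sense oxygen through prolyl hydroxylases that mark the HIF alpha subunits for destruction, so HIF target genes for glycolysis, lactate export and vessel growth are normally less active when oxygen is plentiful. The retina is one of the most energy-hungry tissues, with photoreceptors packed with mitochondria, and it also burns fatty acids and builds membranes rich in long-chain polyunsaturated lipids.

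Values were in FPKM, read counts scaled for gene length and library size, and 14953 of 54532 genes had at least 1 FPKM in at least 4 of the 16 libraries and were tested. The smallest BALBc library held 19128108 reads and the largest 22505600, as worked back from the spacing of low FPKM values. The retinal identity of the libraries was checked on Gnat1, the rod transducin alpha subunit, which was at 608 FPKM or more in every hyperoxia library and at 2275 FPKM or more in every normoxia library. Xist was at 120, 34.4, 45.6 and 0.109 FPKM in hyperoxia replicates 1 to 4 and at 0.0222, 0.0202, 122 and 140 FPKM in normoxia. The Y-linked Ddx3y was at 0.0277, 0, 1.61 and 20.5 FPKM in hyperoxia and at 16.5, 18.2, 0.755 and 0 FPKM in normoxia. Hyperoxia replicates 1 to 3 and normoxia replicates 3 and 4 were thus mostly of female type, but replicate 3 of each group also held Y-linked reads, and whether those libraries mix tissue of both sexes was not tested. The log2 changes given for the female libraries alone rest on these 5 libraries. That setting kept the C57 libraries in the fit, so its p-values also draw on the spread among them, as those of the main fit do. In C57, all 4 hyperoxia libraries had Xist at 61.8 to 105 FPKM and Ddx3y at 0 FPKM. C57 normoxia replicates 1 to 3 had Xist at 0.0186 to 0.0335 FPKM and Ddx3y at 11.9 to 16.6 FPKM. C57 normoxia replicate 4 had Xist at 60.7 FPKM and Ddx3y at 3.55 FPKM. Oxygen and sex were thus nearly confounded in C57, which bears on every C57 response and strain difference below. The BALBc hyperoxia libraries varied more among themselves than the BALBc normoxia ones, as described below for rod, pigment epithelium and lens genes. In whole tissue, fewer cells of a type and less RNA per cell cannot be told apart, and this holds for every result here.

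Of the 14953 tested genes, 24 (0.161%) passed an adjusted p of 0.05 in limma with Benjamini-Hochberg adjustment, 13 of them higher (0.0869%) and 11 lower (0.0736%) in hyperoxia. Quantile normalization gave 42 higher and 22 lower. The libraries of the 2 groups did not overlap for any of these 24. The 11 lower genes included 3 of endothelium, Cldn5, Sox18 and Eng, and a pair linked to low oxygen, Slc16a3 and Ak4. The 13 higher genes included Sdhd and Atp5mpl of the respiratory chain and ATP synthase, Rps15a and Rps27l of the ribosome, Snrpg of the spliceosome, and Ssr4 and Sec61g of the secretory translocon. A wider layer of genes differed without passing the adjustment. At an unadjusted p under 0.05 there were 2118 genes (14.2%), 1254 higher (8.39%) and 864 lower (5.78%), and 1319 genes (8.82%) had groups that did not overlap, 850 higher (5.68%) and 469 lower (3.14%). The median log2 change of all tested genes was -0.0048, and 49% lay above 0.

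The number of genes called depended strongly on single libraries. With hyperoxia replicate 1 left out it was 284, and with hyperoxia replicate 4 left out it was 4. Without normoxia replicate 1, 3 or 4 it was 8, 6 and 1. Leaving out C57 libraries also moved it, since they share the estimate of spread, to 12 and 11 without C57 hyperoxia replicate 1 or 3 and to 70, 109 and 15 without C57 normoxia replicate 2, 3 or 4. F630040K05Rik passed with each of the 8 BALBc libraries left out in turn, and A330023F24Rik, Tmlhe and Snrpg passed in 7 of the 8. The share of all genes at an unadjusted p under 0.05 moved as well. It was 3.04% higher and 11.1% lower under TPM scaling, and 7.56% and 5.04% under quantile normalization. With a rod covariate it was 13.6% and 11.2%, and without hyperoxia replicate 1 it was 11% and 9.12%. Without hyperoxia replicates 1 and 4 it was 12% and 12.7%, and without replicates 2 and 3 it was 5.3% and 7.14%.

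**Figure D1:**
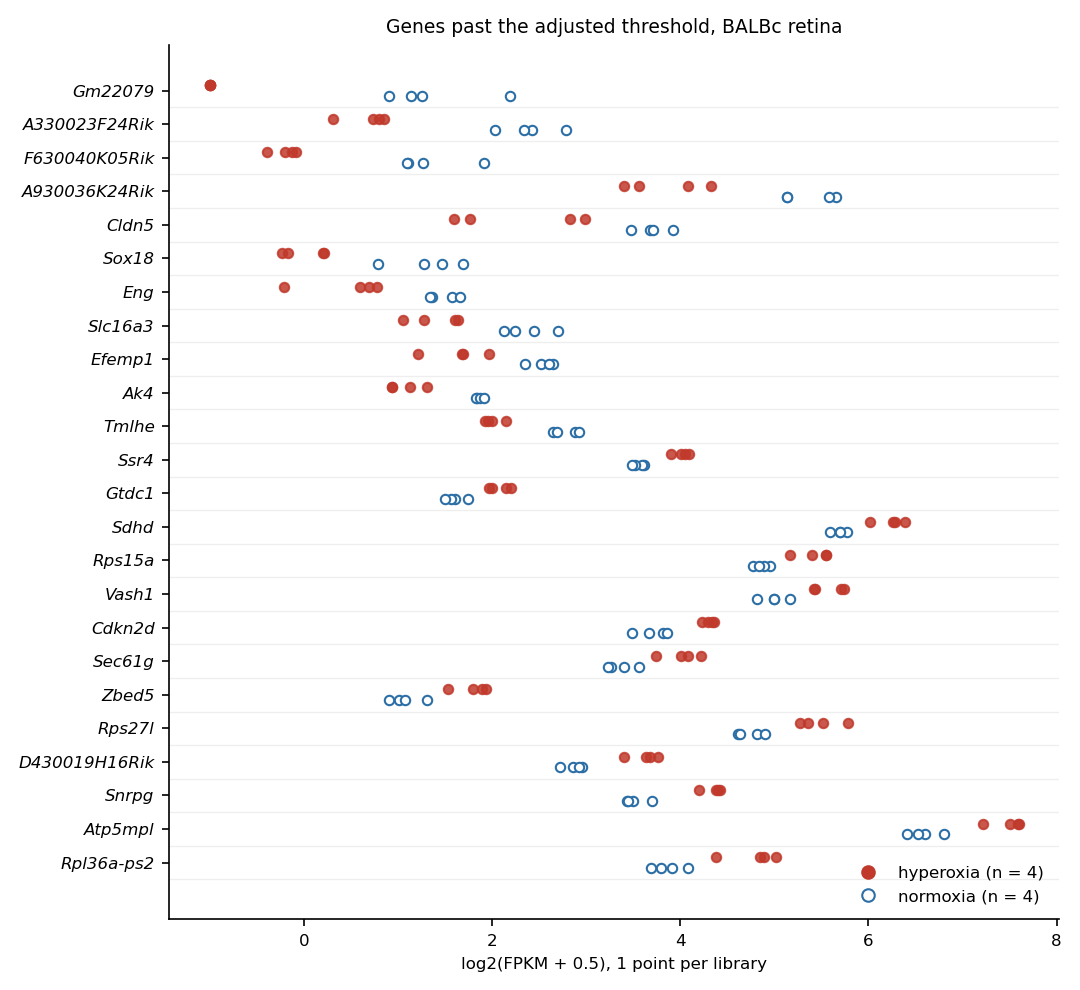
The 24 genes past the adjusted threshold, ordered by log2 change, with log2(FPKM + 0.5) on the horizontal axis and 1 point per library; filled points are hyperoxia and open points normoxia, 4 libraries each. In every row the 4 hyperoxia points lie wholly to the left of the normoxia points (11 genes) or wholly to the right (13 genes).

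Genes that mark the vessel lining were lower in hyperoxia. Cldn5, the claudin that seals endothelial tight junctions, had 2.89, 7.43, 6.6 and 2.53 FPKM in hyperoxia, against 12.3, 14.7, 12.6 and 10.6 FPKM in normoxia. Hyperoxia replicates 1 and 4 were the lowest, and the groups were apart (log2 change -1.40 ± 0.26 SE, limma adjusted p = 0.0400). Sox18, a transcription factor of endothelial and lymphatic development, had 0.653, 0.662, 0.392 and 0.354 FPKM in hyperoxia, against 2.74, 2.26, 1.23 and 1.92 FPKM in normoxia (log2 change -1.30 ± 0.21, adjusted p = 0.0271). Every hyperoxia library held less than the lowest normoxia library. Eng, or endoglin, a co-receptor for TGF-beta family ligands on endothelium, had 1.12, 1.21, 1.01 and 0.366 FPKM in hyperoxia and 2.48, 2.65, 2.07 and 2.04 FPKM in normoxia (log2 change -1.02 ± 0.19, adjusted p = 0.0398). Eng overlaps Fpgs on the opposite strand, and Gm26236, Gm47291 and Mir1954 on the same strand. Whether reads were assigned by strand is not stated, so reads where Eng and Fpgs overlap cannot be told apart.

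The list of endothelial identity and junction genes followed the same direction throughout. Of 27 genes in the table, 15 were tested, all 15 lay below 0 with a median log2 change of -0.69 (range -1.40 to -0.13), 3 passed the adjustment, and 12 had an unadjusted p under 0.05, where 5.78% of all genes were lower. Cdh5, the VE-cadherin of endothelial junctions, missed the threshold, with 0.480, 1.02, 0.494 and 0.0455 FPKM in hyperoxia and 1.79, 2.13, 1.42 and 1.85 FPKM in normoxia (adjusted p = 0.0574). Ets1, a transcription factor active in endothelium, averaged 0.327 ± 0.175 FPKM in hyperoxia and 0.961 ± 0.219 FPKM in normoxia (SD, n = 4 each, limma adjusted p = 0.0746). Pecam1, the adhesion molecule of endothelial contacts, averaged 0.817 ± 0.228 FPKM in hyperoxia and 1.48 ± 0.143 FPKM in normoxia (limma adjusted p = 0.209). Leaving out hyperoxia replicate 4, or any 1 of normoxia replicates 1, 2 and 4, left no called gene among the 15, and leaving out replicate 3 of either group left 1, while 11 to 13 were lower at an unadjusted p in each of these. Without hyperoxia replicate 1 or 2 the number called was 4. With the BALBc libraries alone none was called and 11 were lower at an unadjusted p. The summed level of the 15 genes was between 32.9 and 39.5 FPKM in hyperoxia and between 51.7 and 60.9 FPKM in normoxia, so the sums did not overlap. In the female libraries alone, 6 of the 15 genes had an unadjusted p under 0.05 and the median was -0.50, and without hyperoxia replicates 1 and 4 the values were 9 genes and -0.59. Of 15 genes of barrier transport in the same vessels, 1 was lower at an unadjusted p, and the median was -0.12.

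No pericyte, smooth muscle or basement membrane gene passed the adjustment, but both lists held more lower genes than the 5.78% of all genes. Of 11 tested pericyte and smooth muscle genes, 6 were lower at an unadjusted p and the median was -0.47. Without hyperoxia replicate 4 the count was 3 and the median -0.37. Rgs5, a G-protein regulator that marks pericytes, had 6.14, 15.3, 12.7 and 3.16 FPKM in hyperoxia and 16.4, 21.3, 20.2 and 22.3 FPKM in normoxia (log2 change -1.27 ± 0.33, limma adjusted p = 0.109). As for Cldn5, hyperoxia replicates 1 and 4 were lowest. Kcnj8, a pore subunit of the potassium channel of pericytes, was at 0.282 to 0.632 FPKM in hyperoxia and 0.746 to 1.52 FPKM in normoxia (limma adjusted p = 0.142). Pdgfrb, the receptor by which pericytes are recruited, overlapped between groups, at 1.26 to 1.73 FPKM in hyperoxia and 1.52 to 2.49 FPKM in normoxia (limma adjusted p = 0.436).

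Of 13 basement membrane genes, 6 were lower at an unadjusted p, with a median of -0.48. Without hyperoxia replicate 4 the count was 3 and the median -0.37, and without normoxia replicate 4 the count was 5 and the median -0.28. Col4a1 and Col4a2, the chains of type IV collagen, had 4.59 to 7.50 and 5.07 to 8.42 FPKM in hyperoxia, against 9.10 to 13 and 8.86 to 11.3 FPKM in normoxia (limma adjusted p = 0.122 and 0.236). The 2 genes lie head to head and share only chr8:11312805-11312826, so only reads there may mix. Lamb2, a laminin chain, was at 1.63 to 2.11 FPKM in hyperoxia and 2.24 to 3.31 FPKM in normoxia (limma adjusted p = 0.195). In the female libraries alone no basement membrane gene had an unadjusted p under 0.05 and the median was -0.21. In C57 retinas the same list had a median of 0.14, and 6 of its 13 genes differed in response between the strains at an unadjusted p under 0.05, where 9.56% of all genes did. None of those differences passed the adjustment. Of 10 fibroblast and interstitial matrix genes 1, Efemp1, was called lower. The list varied within normoxia: the mean log2 level of the 10 genes was 0.58 to 1.07 in hyperoxia, and in normoxia it was 1.01 in replicate 1, 1.65 in replicate 2, 1.01 in replicate 3 and 1.75 in replicate 4. Fbln1, a fibulin of that list, had 0.198 to 0.995 FPKM in hyperoxia and 1.05, 6.37, 0.800 and 11.5 FPKM in normoxia. The part of such tissue in the basement membrane result was not tested.

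Signals that guide vessel growth were more mixed. Vegfa, the main vessel growth factor and a HIF target, had 29.8, 9.44, 14.1 and 21.7 FPKM in hyperoxia and 26.3, 24.2, 26.7 and 29.8 FPKM in normoxia (log2 change -0.62 ± 0.29, limma adjusted p = 0.344). Hyperoxia replicate 1 held as much as any normoxia library and replicates 2 and 3 the least, so the groups overlapped. Its receptors differed from each other: Flt1 was at 1.02 to 1.59 FPKM in hyperoxia and 1.92 to 2.47 FPKM in normoxia (limma adjusted p = 0.279), while Kdr, which neural retina also expresses at this age, overlapped at 11.5 to 25.5 and 17.4 to 23.3 FPKM (limma adjusted p = 0.508). Of 20 angiopoietin, Notch and tip cell genes, 7 were lower at an unadjusted p, with a median of -0.14. These included Aplnr, the apelin receptor of growing endothelium, at 0.194 to 0.914 FPKM in hyperoxia and 1.12 to 1.59 FPKM in normoxia (limma adjusted p = 0.0802). Pdgfb, which endothelium releases to recruit pericytes, was at 0.196 to 0.543 and 0.788 to 1.17 FPKM (limma adjusted p = 0.115), and Jag1, a Notch ligand, at 12.5 to 17.0 and 17.4 to 21.9 FPKM (limma adjusted p = 0.128), hyperoxia first in each. Against this direction, Vash1, encoding vasohibin, an inhibitor of vessel growth and a tubulin carboxypeptidase, rose, with 42.8, 51.8, 42.5 and 52.9 FPKM in hyperoxia and 35.4, 31.4, 31.4 and 27.6 FPKM in normoxia (log2 change 0.59 ± 0.11, adjusted p = 0.0394). Svbp, its binding partner, was at 11.5 to 14.3 FPKM in hyperoxia and 8.62 to 8.94 FPKM in normoxia, apart but just outside the threshold (limma adjusted p = 0.0547). Vash1 stood alone in its list. Of 13 tested angiogenesis inhibitors only Vash1 was higher at an unadjusted p and 1 was lower, 6 lay above 0, and the median was -0.01.

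**Figure D2:**
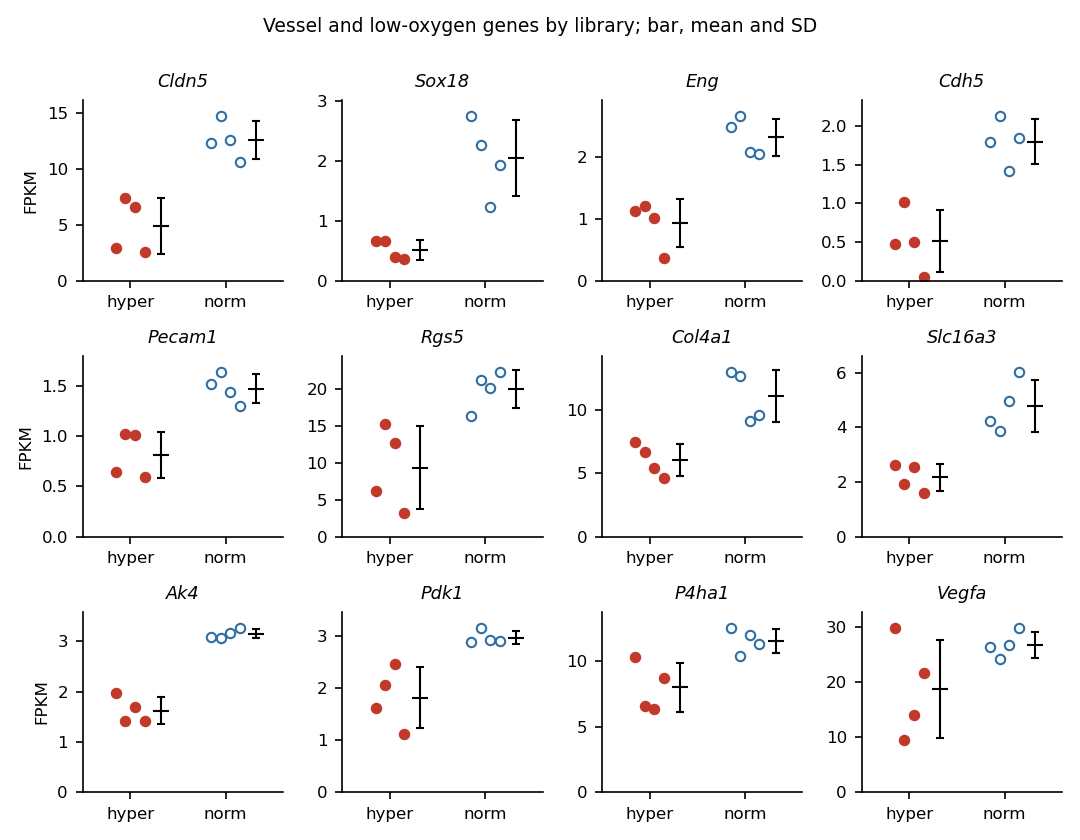
FPKM of 12 vessel and low-oxygen genes, with the 4 hyperoxia libraries (filled) left of the 4 normoxia libraries (open) in each panel, replicates 1 to 4 from left to right, and bars for mean and SD. All panels but Vegfa show groups that do not overlap.

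Genes that low oxygen induces were lower in part. Slc16a3, the monocarboxylate transporter MCT4 that exports lactate and a HIF target, fell, with 2.62, 1.92, 2.55 and 1.58 FPKM in hyperoxia and 4.23, 3.86, 4.97 and 6.02 FPKM in normoxia (log2 change -0.99 ± 0.16, adjusted p = 0.0242). Ak4, a mitochondrial adenylate kinase induced by HIF, fell, with 1.98, 1.41, 1.69 and 1.41 FPKM in hyperoxia and 3.09, 3.06, 3.16 and 3.26 FPKM in normoxia (log2 change -0.79 ± 0.14, adjusted p = 0.0374). The normoxia libraries of Ak4 lay close together, at 3.14 ± 0.0889 FPKM (SD, n = 4). In C57 retinas Ak4 averaged 3.63 FPKM in hyperoxia and 3.84 FPKM in normoxia.

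The promoters of these 2 genes are shown because they carry the core letters of the hypoxia response element. Sequences are from RefSeq on GRCm38.p6, from 250 bases before to 50 bases after the transcript start, at chr11:120948817-120949116 (plus strand) for Slc16a3, whose RefSeq start lies 587 bases from the GENCODE gene start, and chr4:101419039-101419338 (plus strand) for Ak4, whose start is 1 of 4 listed. Capitals mark the 5 letters ACGTG or GCGTG, searched on both strands, and each promoter holds 2 matches.
Slc16a3: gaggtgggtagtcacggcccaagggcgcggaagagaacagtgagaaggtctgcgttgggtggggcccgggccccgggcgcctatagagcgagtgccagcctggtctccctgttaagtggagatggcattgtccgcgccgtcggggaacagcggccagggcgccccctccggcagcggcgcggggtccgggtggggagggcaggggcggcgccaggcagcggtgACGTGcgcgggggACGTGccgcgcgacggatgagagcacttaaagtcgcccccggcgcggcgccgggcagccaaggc
Ak4: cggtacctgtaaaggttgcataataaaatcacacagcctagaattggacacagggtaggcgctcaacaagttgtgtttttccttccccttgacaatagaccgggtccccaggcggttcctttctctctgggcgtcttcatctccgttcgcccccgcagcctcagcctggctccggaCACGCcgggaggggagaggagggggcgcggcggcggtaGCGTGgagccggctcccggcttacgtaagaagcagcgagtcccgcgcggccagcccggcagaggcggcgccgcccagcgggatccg
The letters are common: they occur in 43.8% of the 32851 promoters in the table, and 67.5% of the tested genes with a promoter in it had at least 1. Of 31 tested HIF targets outside glycolysis, 23 had a promoter there and 22 of these held the letters. A match of letters is not a bound site.

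Of those 31 HIF targets, Ak4 was called, 6 were lower and 3 higher at an unadjusted p, with a median of -0.18. The lower count was 11 without hyperoxia replicate 1 and 9 under TPM scaling, where 9.12% and 11.1% of all genes were lower. It was 4 without any 1 of hyperoxia replicates 2 and 3 and normoxia replicates 2 to 4. Among the lower ones, P4ha1, a collagen prolyl hydroxylase, was at 6.35 to 10.3 FPKM in hyperoxia and 10.4 to 12.5 FPKM in normoxia (limma adjusted p = 0.126), and Ndufa4l2, a subunit-like protein of the respiratory chain induced by HIF, at 0.833 to 1.01 and 1.47 to 3.06 FPKM (limma adjusted p = 0.0889), hyperoxia first. Other well-known targets overlapped between groups. Egln3, a prolyl hydroxylase that HIF itself induces, had 0.921, 0.282, 0.758 and 0.324 FPKM in hyperoxia and 0.808 to 0.862 FPKM in normoxia (limma adjusted p = 0.482), and Bnip3, a mitophagy receptor, 18.4 to 26.7 and 21.5 to 29.2 FPKM (limma adjusted p = 0.557). Of 10 HIF subunits and oxygen sensors, 1 had an unadjusted p under 0.05, the prolyl hydroxylase Egln2, at 16.5 to 19.2 FPKM in hyperoxia and 12.0 to 16.3 FPKM in normoxia.

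Of 31 genes of glycolysis and lactate transport, Slc16a3 was called, 7 were lower and 1 higher at an unadjusted p, and the median was -0.12. Pfkl, the liver-type phosphofructokinase, was at 19.5, 19.9, 19.6 and 17.2 FPKM in hyperoxia and 28.6, 27.2, 27.2 and 29.8 FPKM in normoxia (limma adjusted p = 0.0883). Pfkp, the platelet-type enzyme, was at 22.1, 7.63, 11.7 and 13.7 FPKM in hyperoxia and 22.8 to 29.2 FPKM in normoxia (limma adjusted p = 0.103). Pdk1, the kinase that shuts pyruvate dehydrogenase, was at 1.12 to 2.47 FPKM in hyperoxia and 2.89 to 3.15 FPKM in normoxia (limma adjusted p = 0.0883). Under TPM scaling 18 of the 31 were lower, none higher and 5 called lower, where 11.1% of all genes were lower. Under quantile normalization 15 were lower, none higher and 5 called lower, where 5.04% of all genes were lower. The list's median changed sign with the libraries used, at 0.04 without hyperoxia replicates 1 and 4 and -0.31 without replicates 2 and 3, so no direction is given for the list as a whole.

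Genes of oxidative phosphorylation were higher nearly throughout. Of 83 tested nuclear genes of complexes I to IV and ATP synthase, 81 lay above 0. At an unadjusted p, 73 were higher and 1 lower. Groups did not overlap for 56, all higher, where 5.68% of all genes were higher without overlap. The median was 0.50, but only 2 passed the adjustment. The number called was 14 under TPM scaling, 7 under quantile normalization, 72 with a rod covariate and 35 without hyperoxia replicate 1. Of all genes, 54, 42, 738 and 178 were called higher in these settings, in that order. None of the 83 was called with the BALBc libraries alone or when any other 1 of them was left out. The number higher at an unadjusted p stayed between 62 and 78 in all of these, while 3.04% to 13.6% of all genes were higher. The first of the 2 called in the main fit was Sdhd, a membrane anchor of succinate dehydrogenase, with 64.2, 83.2, 76.3 and 77.5 FPKM in hyperoxia and 51.5, 54.1, 51.4 and 47.7 FPKM in normoxia (log2 change 0.55 ± 0.09, adjusted p = 0.0305). The second was Atp5mpl, a small proteolipid of ATP synthase, with 148, 181, 193 and 192 FPKM in hyperoxia and 96.7, 111, 84.4 and 92.0 FPKM in normoxia (log2 change 0.89 ± 0.16, adjusted p = 0.0398). Hyperoxia replicate 1 was the lowest hyperoxia library for both and still above every normoxia library.

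By complex, 33 of 37 complex I genes, 3 of 4 complex II genes, 9 of 10 complex III genes, 12 of 14 complex IV genes and 16 of 18 ATP synthase genes were higher at an unadjusted p, with medians of 0.48, 0.37, 0.51, 0.57 and 0.48. Ndufa1, an essential small subunit of complex I, had 113, 167, 190 and 142 FPKM in hyperoxia and 99.5, 79.2, 67.7 and 76.0 FPKM in normoxia (limma adjusted p = 0.0574). Cox5b, a regulatory subunit of cytochrome c oxidase, had 73.5, 102, 97.5 and 79.0 FPKM in hyperoxia and 60.2, 53.6, 45.5 and 50.5 FPKM in normoxia (limma adjusted p = 0.0547). Uqcr11 of complex III averaged 110 ± 11.5 FPKM in hyperoxia and 63.7 ± 8.45 FPKM in normoxia (SD, n = 4 each, limma adjusted p = 0.0883). Within complex II, Sdhb and Sdhc were apart between groups at limma adjusted p of 0.149 and 0.143, while Sdha, the flavoprotein, overlapped, at 45.9 to 62.8 FPKM in hyperoxia and 44.4 to 53.9 FPKM in normoxia.

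The 13 genes of the mitochondrial genome all lay above 0, with a median of 0.43, but 2 had an unadjusted p under 0.05 and none had groups apart. Their mean was 7.49, 8.70, 8.87 and 7.95 (log2) in hyperoxia replicates 1 to 4 and 7.48 to 7.94 in normoxia, so replicates 2 and 3 stood well above the normoxia range, replicate 4 just above its upper end and replicate 1 inside it. mt-Nd1, a complex I subunit made in the mitochondrion, had 2945, 6608, 7653 and 3948 FPKM in hyperoxia and 2799 to 4393 FPKM in normoxia. The nuclear genes followed the same order of libraries with a smaller spread: the mean of the complex I list was 5.41, 5.80, 5.86 and 5.66 in hyperoxia and 5.17 to 5.32 in normoxia, and all 4 hyperoxia libraries lay above all normoxia libraries. With hyperoxia replicates 2 and 3 left out, 21 of the 83 nuclear genes were higher at an unadjusted p and none was called, with a median of 0.33. Without replicates 1 and 4, 76 were higher at an unadjusted p, 45 were called, and the median was 0.66.

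The promoters of Sdhd and Uqcr11 are shown as members of this group, with a search for the core letters of NRF1 and of ETS factors, CCGGAAGT, regulators known to act on respiratory chain genes. They lie at chr9:50603800-50604099 for Sdhd and chr10:80406772-80407071 for Uqcr11, both on the minus strand of GRCm38.p6 and given in the direction of transcription.
Sdhd: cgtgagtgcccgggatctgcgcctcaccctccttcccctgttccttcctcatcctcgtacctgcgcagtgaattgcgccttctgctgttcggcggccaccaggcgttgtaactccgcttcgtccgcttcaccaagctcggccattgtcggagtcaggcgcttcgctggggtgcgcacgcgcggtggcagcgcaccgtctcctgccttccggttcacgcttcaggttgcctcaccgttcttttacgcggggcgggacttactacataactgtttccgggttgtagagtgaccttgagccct
Uqcr11: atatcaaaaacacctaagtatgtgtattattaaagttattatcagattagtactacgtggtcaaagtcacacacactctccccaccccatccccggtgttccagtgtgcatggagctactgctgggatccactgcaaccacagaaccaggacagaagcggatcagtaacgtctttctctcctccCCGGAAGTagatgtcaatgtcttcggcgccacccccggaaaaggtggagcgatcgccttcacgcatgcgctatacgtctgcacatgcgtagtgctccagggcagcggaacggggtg
Capitals mark a match on either strand. Uqcr11 held 1 ETS core and Sdhd neither set of letters, which says only that these letters are not in this window. Of 66 tested genes of the group with a promoter in the table, 5 held the NRF1 core and 5 the ETS core (7.58% each), while among all tested genes with a promoter the shares were 2.32% and 9.02%, and among all promoters 0.971% and 3.89%.

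The other mitochondrial groups were higher to a lesser degree. Of 52 mitochondrial ribosome genes, 24 were higher at an unadjusted p, with a median of 0.30. Under TPM scaling the values were 12 and 0.15, where 3.04% of all genes were higher. Without hyperoxia replicate 3 they were 16 and 0.26, where 6.16% of all genes were higher. Of 22 tricarboxylic acid cycle genes 7 were higher, including Sdhd, with a median of 0.18. Mrpl22, a protein of the large mitochondrial ribosomal subunit, was at 14.1 to 15.8 FPKM in hyperoxia and 8.81 to 13.3 FPKM in normoxia (limma adjusted p = 0.0889).

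Cytosolic ribosomal protein genes formed an equally broad group. Of 81 tested, 79 lay above 0, 71 were higher and none lower at an unadjusted p, and the median was 0.55. Groups did not overlap for 61, all higher, where 5.68% of all genes were higher without overlap. The number called, 2 here, was 25 under TPM scaling, 11 under quantile normalization, 68 with a rod covariate and 27 without hyperoxia replicate 1. Of all genes, 54, 42, 738 and 178 were called higher in these settings, in that order. The number was 0 with the BALBc libraries alone and 0 or 1 when any other 1 of them was left out. Called in the main fit were Rps15a, with 35.5, 41.9, 46.4 and 46.4 FPKM in hyperoxia and 26.8, 30.5, 29.1 and 28.2 FPKM in normoxia (log2 change 0.56 ± 0.10, adjusted p = 0.0374), and Rps27l. Rps27l, a ribosomal protein paralog that p53 also induces, had 40.5, 38.1, 45.3 and 54.7 FPKM in hyperoxia and 27.7, 29.4, 24 and 24.3 FPKM in normoxia (log2 change 0.74 ± 0.13, adjusted p = 0.0374). Its promoter, at chr9:66945836-66946135 on the plus strand of GRCm38.p6, held 1 ETS core after the start, shown in capitals.
Rps27l: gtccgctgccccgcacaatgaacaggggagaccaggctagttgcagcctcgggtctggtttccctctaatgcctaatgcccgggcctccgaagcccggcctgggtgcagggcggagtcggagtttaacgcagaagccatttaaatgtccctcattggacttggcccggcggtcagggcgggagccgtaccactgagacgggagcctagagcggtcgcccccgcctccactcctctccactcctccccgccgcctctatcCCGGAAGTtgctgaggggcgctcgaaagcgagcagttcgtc
Rpl34 and Rps14 stand for the members outside the threshold, at 76.0 to 117 and 311 to 473 FPKM in hyperoxia and 52.1 to 62.1 and 219 to 258 FPKM in normoxia (limma adjusted p = 0.0574 and 0.0796). Rpl36a-ps2, an annotated pseudogene inside Ddah1, was called higher, at 20.4 to 31.8 FPKM in hyperoxia and 12.4 to 16.5 FPKM in normoxia (adjusted p = 0.0305), and its reads may belong to Rpl36a, which was at 53.6 to 83.5 and 36.5 to 43.4 FPKM (limma adjusted p = 0.0787). Without hyperoxia replicates 2 and 3, 34 of the 81 genes were higher at an unadjusted p and none was called, with a median of 0.42.

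Genes for other small proteins of gene expression and protein handling were also called. Snrpg, the Sm protein G of the spliceosome, rose, with 17.9, 20.9, 20.6 and 20.4 FPKM in hyperoxia and 10.3, 12.5, 10.8 and 10.4 FPKM in normoxia (log2 change 0.83 ± 0.11, adjusted p = 0.00854), and 10 of 18 Sm and LSm genes were higher at an unadjusted p, with a median of 0.35. That count was 4 under TPM scaling and 6 without normoxia replicate 4, where 3.04% and 6.17% of all genes were higher. Ssr4, a subunit of the translocon-associated complex, rose, with 14.5, 15.6, 16.1 and 16.6 FPKM in hyperoxia and 11.8, 11.6, 11 and 10.7 FPKM in normoxia (log2 change 0.46 ± 0.07, adjusted p = 0.0119). Sec61g, the gamma subunit of the channel itself, rose, with 12.9, 18.1, 16.4 and 15.6 FPKM in hyperoxia and 10.1, 11.3, 9.14 and 8.91 FPKM in normoxia (adjusted p = 0.0400). The whole list of translocon and signal peptidase genes had 8 of 21 higher at an unadjusted p and a median of 0.22. Of 15 proteasome core genes, 12 were higher at an unadjusted p, none was called, and the median was 0.32, or 7 higher and 0.16 under TPM scaling. Psmb3, one of the beta subunits, was at 48.8 to 71.8 FPKM in hyperoxia and 37.8 to 44.7 FPKM in normoxia (limma adjusted p = 0.0883).

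**Figure D3:**
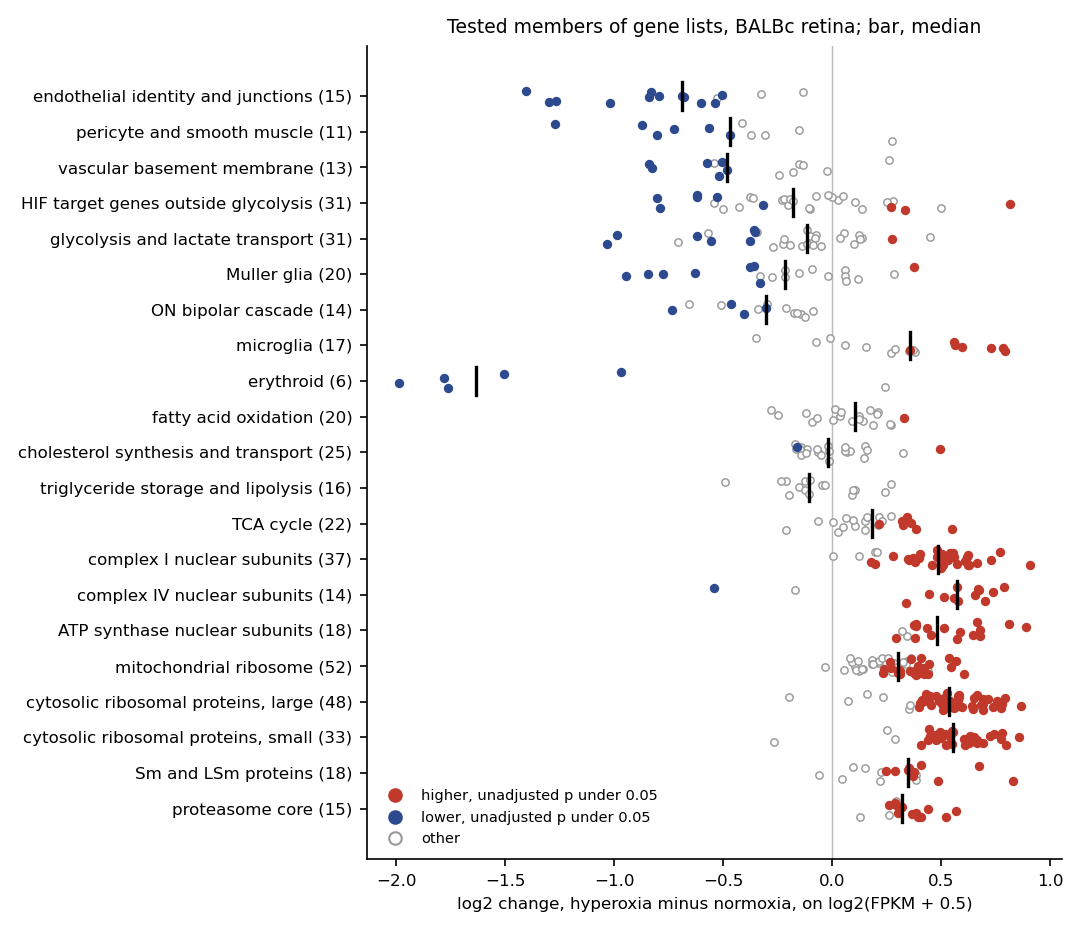
Log2 change, hyperoxia minus normoxia, of each tested member of 21 lists (member count in brackets), with filled points for an unadjusted p under 0.05 and a bar for the list median. Vessel lists lie mostly below 0, and respiratory chain, ribosome, Sm and proteasome lists mostly above.

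Most of these higher genes are short, and the change in hyperoxia ran with gene length across the tested protein-coding genes. The called genes were short in both directions. Their median length was 2531.5 bases for the protein-coding genes called higher and 2251 for those called lower, against 4521 for all tested. Among protein-coding genes with under 1000 bases of merged exon (284 genes), the median log2 change was 0.34 and 34.2% were higher at an unadjusted p, whereas among the 4046 genes of 6000 bases and over the median was -0.05 and 2.15% were higher. The median for the shortest genes, relative to the normoxia average, was 0.15, 0.40, 0.49 and 0.29 in hyperoxia replicates 1 to 4 and between -0.04 and 0.07 in normoxia. In C57 retinas the medians of the shortest and longest genes were 0.12 and -0.01. With a smooth trend on exon length removed from each library, an alternative chosen after seeing the data, 68 of the 83 respiratory chain and ATP synthase genes and 70 of the 81 ribosomal protein genes were higher at an unadjusted p, with medians of 0.41 and 0.49.

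**Figure D4:**
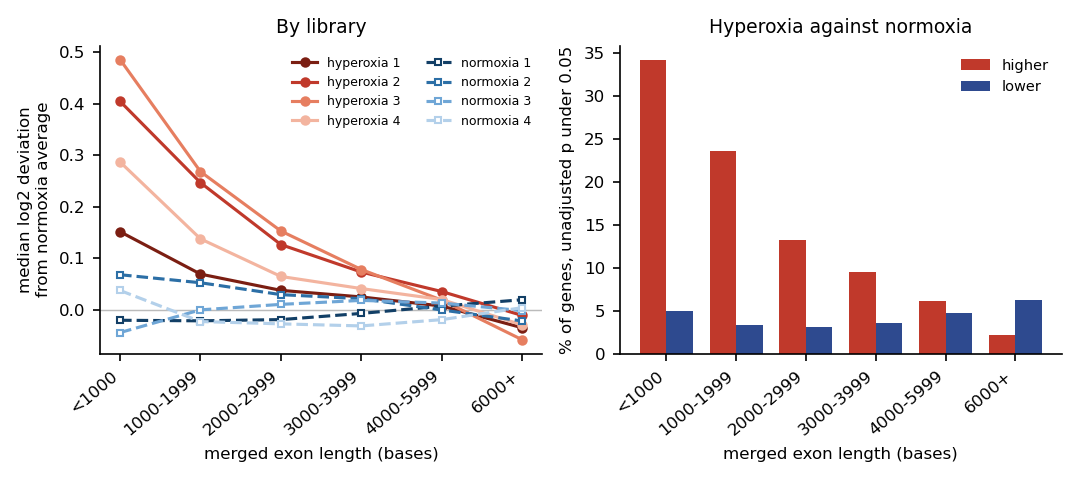
Left, the median log2 deviation from the normoxia average by bin of merged exon length, 1 line per library, filled for hyperoxia and open for normoxia. Right, the percentage of protein-coding genes in each bin that were higher or lower in hyperoxia at an unadjusted p under 0.05; the share of higher genes was 34.2% in the shortest bin and 2.15% in the longest.

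Lipid metabolism, the theme of the study, showed 1 called gene. Tmlhe, the dioxygenase that starts carnitine synthesis from trimethyllysine, fell, with 3.5, 3.31, 3.92 and 3.38 FPKM in hyperoxia and 5.78, 5.97, 6.85 and 7.07 FPKM in normoxia (log2 change -0.78 ± 0.10, adjusted p = 0.00824). The groups were well apart, and in C57 retinas Tmlhe averaged 3.60 FPKM in hyperoxia and 4.66 FPKM in normoxia (log2 change -0.34, limma adjusted p = 0.161). Cpt2, the inner-membrane enzyme of the carnitine shuttle that carries fatty acids into mitochondria, was at 12.1 to 12.7 FPKM in hyperoxia and 8.79 to 10.9 FPKM in normoxia (limma adjusted p = 0.180). Of 20 genes of fatty acid oxidation, 1 had an unadjusted p under 0.05.

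Most of the remaining lipid lists stayed near the share of all genes, 8.39% higher and 5.78% lower at an unadjusted p. Of 15 genes of fatty acid binding and uptake, 2 were higher and none lower, with a median of -0.04. Of 6 ketone body enzymes 1 was higher, with a median of 0.32. Of 19 genes of fatty acid synthesis and desaturation, 1 was higher at an unadjusted p, of 16 of triglyceride storage and lipolysis none, of 25 of cholesterol synthesis and transport 1 was higher and 1 lower, of 23 of sphingolipids and phospholipids 1 was higher, and of 9 PPAR and PGC-1 genes none. Elovl2, the elongase that makes the precursors of docosahexaenoic acid, was at 34.2, 31.1, 24.4 and 38 FPKM in hyperoxia and 20.2 to 25.2 FPKM in normoxia, with hyperoxia replicate 3 inside the normoxia range (limma adjusted p = 0.0995). Fabp7, a fatty acid binding protein of glia, was at 28.7, 28.5, 28.3 and 53.4 FPKM in hyperoxia and 18.3 to 27.0 FPKM in normoxia (limma adjusted p = 0.293). Fabp5 was also apart, at 8.19 to 11.8 and 5.08 to 7.08 FPKM (limma adjusted p = 0.322). Fasn, the fatty acid synthase, overlapped between groups, at 19.9 to 26.0 FPKM in hyperoxia and 19.7 to 24 FPKM in normoxia (limma adjusted p = 0.605).

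Pnpla2, the adipose triglyceride lipase, was at 2.65 to 3.61 FPKM in BALBc hyperoxia and 3.35 to 3.65 FPKM in BALBc normoxia (log2 change -0.15 ± 0.11, limma adjusted p = 0.559), while in C57 it rose to 5.70 FPKM in hyperoxia, against 3.52 FPKM in normoxia (limma adjusted p = 0.0404). The difference of the responses, BALBc minus C57, was -0.76 ± 0.15 in limma, and its adjusted p was 0.245 (unadjusted 0.000132). Acat1 and Oxct1, enzymes of ketone body use, were at 39.7 to 59.6 and 86.5 to 103 FPKM in BALBc hyperoxia and 33.3 to 42.5 and 65.6 to 79.2 FPKM in BALBc normoxia, and their difference from the C57 response had unadjusted limma p of 0.00327 and 0.00580 (adjusted p = 0.318 and 0.358). Ppara, the nuclear receptor that drives fatty acid oxidation, was between 0.0140 and 0.0752 FPKM in BALBc hyperoxia and between 0.0260 and 0.0841 FPKM in BALBc normoxia, so a response could not be measured at this depth, whereas the 8 C57 libraries lay between 2.97 and 6.18 FPKM.

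Neuronal and glial genes gave no call, with some lists shifted downward. Müller glia span the retina and recycle glutamate, and of 20 genes of theirs 7 were lower and 1 higher at an unadjusted p, with a median of -0.22. The lower count was 10 without hyperoxia replicate 1, where 9.12% of all genes were lower. It was 4 without hyperoxia replicate 2, hyperoxia replicate 4 or normoxia replicate 2, where 4.05%, 5.97% and 5.72% of all genes were lower. Glul, their glutamine synthetase, had 177, 158, 236 and 148 FPKM in hyperoxia and 298, 295, 298 and 321 FPKM in normoxia (log2 change -0.78 ± 0.21, limma adjusted p = 0.112), while C57 retinas averaged 318 FPKM in hyperoxia and 229 FPKM in normoxia. The difference of these responses was -1.20 in limma, and its adjusted p was 0.250 (unadjusted 0.000923). Aqp4, the water channel of Müller endfeet and astrocytes, had 7.44, 5.72, 8.64 and 7.42 FPKM in hyperoxia and 13, 11.5, 13.9 and 15.5 FPKM in normoxia (limma adjusted p = 0.108), with groups apart.

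All 14 genes of the ON bipolar signalling cascade lay below 0, with a median of -0.30 and 4 lower at an unadjusted p. That count was 1 without hyperoxia replicate 2, and 2 without hyperoxia replicate 4 or normoxia replicate 1 or 4. It was 8 under TPM scaling, where 11.1% of all genes were lower. Grm6, their glutamate receptor, had 37.8, 7.29, 13.3 and 25.5 FPKM in hyperoxia and 22.5 to 31.7 FPKM in normoxia, so hyperoxia replicate 1 was above and replicates 2 and 3 below the normoxia range (limma adjusted p = 0.480). Grik1, a kainate receptor subunit of OFF bipolar cells, was at 2.72 to 6.22 FPKM in hyperoxia and 6.69 to 7.36 FPKM in normoxia (limma adjusted p = 0.141). Gad1 and Gad2, the enzymes that make GABA in amacrine and horizontal cells, were lowest in hyperoxia replicate 4, at 7.87 and 2.58 FPKM, and otherwise at 15.9 to 18.6 and 4.28 to 6.04 FPKM in hyperoxia and 16.7 to 21.5 and 5.53 to 7.57 FPKM in normoxia.

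Rod genes taken as a list did not separate the groups. Of 19 rod phototransduction genes none had an unadjusted p under 0.05, and the median was -0.05. The groups did not overlap for 1 of them, which was lower, where 3.14% of all genes were lower without overlap. The list mean was 7.55, 8.76, 8.79 and 8.20 (log2) in hyperoxia replicates 1 to 4 and 8.42 to 8.68 in normoxia. Gnat1 had 608, 2575, 2804 and 1095 FPKM in hyperoxia and 2275 to 2964 FPKM in normoxia. Hyperoxia replicates 1 and 4 were thus low in rod genes, and replicates 2 and 3 were at or above normoxia.

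The same hyperoxia replicates 2 and 3 were high in genes of the pigment epithelium, a layer behind the retina, and replicate 2 in genes of the lens, tissues that can adhere to a dissected retina. The pigment epithelium list of 14 genes summed to between 155 and 633 FPKM in hyperoxia and between 214 and 303 FPKM in normoxia. Rgr, an opsin of that layer, had 14.6, 60.4, 80.0 and 33.4 FPKM in hyperoxia and 18.9 to 29.1 FPKM in normoxia, and Dct, a melanin enzyme, 10.8, 47.9, 45.8 and 24.5 FPKM in hyperoxia and 11.6 to 20.4 FPKM in normoxia. The 19 lens genes summed to between 62.4 and 2807 FPKM in hyperoxia and between 50.4 and 356 FPKM in normoxia, and none had an unadjusted p under 0.05. The order of the hyperoxia libraries in the pigment epithelium list was the same as in the rod, complex I, mitochondrial genome and ribosomal lists. The part of the tissue sampled in those results was not tested. The endothelial list was lower in each hyperoxia library, including replicates 2 and 3.

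**Figure D5:**
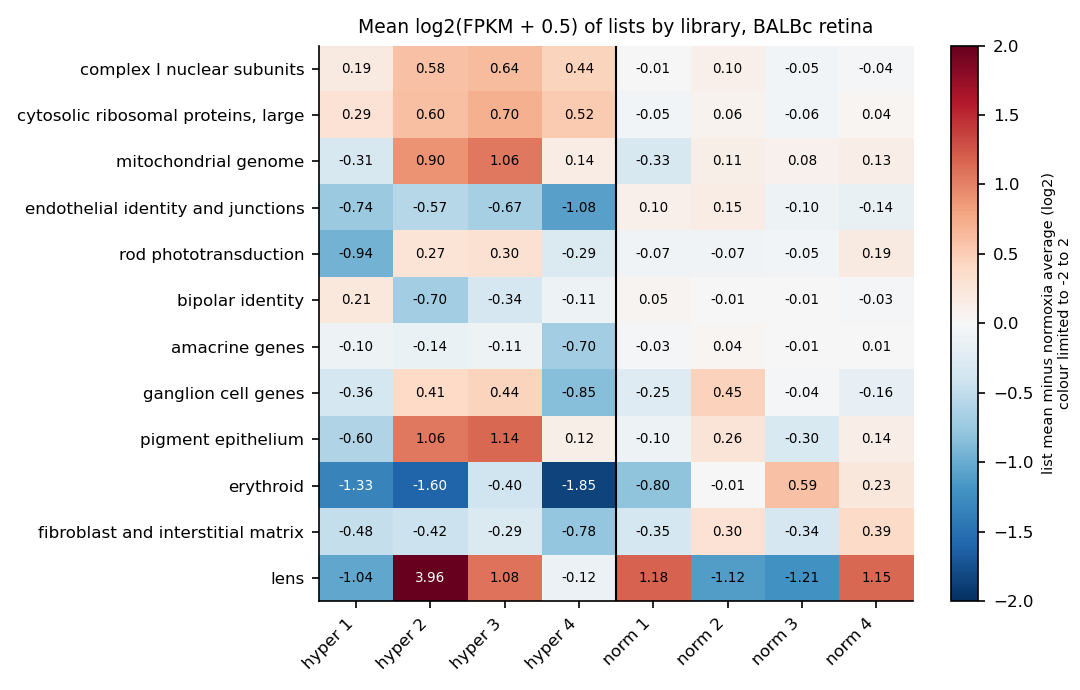
Mean log2(FPKM + 0.5) of 12 lists in each BALBc library, as the difference from the average of the 4 normoxia libraries, with hyperoxia left of the line and normoxia right. The endothelial row is below 0 in all 4 hyperoxia libraries and the complex I and ribosomal rows above 0, while rod, bipolar, ganglion cell, pigment epithelium and lens rows differ between hyperoxia replicates.

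No erythroid or microglia gene passed the adjustment. Of 6 tested erythroid genes 5 were lower at an unadjusted p, with a median of -1.63. Hba-a2, an alpha globin, had 0.721, 0.402, 3.81 and 0.502 FPKM in hyperoxia and 3.07, 4.68, 7.33 and 7.64 FPKM in normoxia (log2 change -1.99 ± 0.41, limma adjusted p = 0.0574), with hyperoxia replicate 3 inside the normoxia range. Alas2, the erythroid enzyme that starts haem synthesis, was apart, at 0.637 to 1.22 FPKM in hyperoxia and 1.81 to 2.82 FPKM in normoxia (limma adjusted p = 0.0883). How far globin reads reflect blood left in the vessels was not tested.

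Of 17 microglia genes 7 were higher and none lower at an unadjusted p, with a median of 0.36. Without hyperoxia replicates 2 and 3 the counts were 3 higher and 1 lower, and the median was 0.15. Under TPM scaling they were 4 and 1, with a median of 0.20, where 3.04% of all genes were higher and 11.1% lower. Lyz2, the lysozyme of myeloid cells, had 7.09, 8.97, 8.11 and 7.53 FPKM in hyperoxia and 2.73, 5.26, 4.41 and 5.64 FPKM in normoxia (limma adjusted p = 0.112). C1qb, a chain of the complement starter C1q, was at 9.28 to 13.1 FPKM in hyperoxia and 6.19 to 8.74 FPKM in normoxia (limma adjusted p = 0.136). C1qa, another chain of C1q, overlapped, at 9.71 to 18.7 FPKM in hyperoxia and 8.48 to 11.2 FPKM in normoxia (limma adjusted p = 0.226).

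The called genes in no list were mostly not protein-coding. F630040K05Rik, a long intergenic RNA at chr17:45734506-45788594 of GRCm38, had the smallest p, with 0.415, 0.443, 0.368 and 0.261 FPKM in hyperoxia and 1.65, 1.64, 1.90 and 3.26 FPKM in normoxia (log2 change -1.55 ± 0.19, adjusted p = 0.00665). A330023F24Rik, a processed transcript at chr1:194976375-195037904 that overlaps Mir29b-2 and Mir29c, and Cd46 on the opposite strand, had 1.17, 0.740, 1.3 and 1.24 FPKM in hyperoxia and 4.88, 3.60, 4.57 and 6.42 FPKM in normoxia (log2 change -1.72 ± 0.22, adjusted p = 0.00824). Both fell in every hyperoxia library, and in C57 their log2 changes were -0.62 and -0.74, not past the threshold. A930036K24Rik, a transcript of unsettled type next to Gnat1, was at 10.1 to 19.6 FPKM in hyperoxia and 34.6 to 49.9 FPKM in normoxia (adjusted p = 0.0257), and unlike Gnat1 it was low in all 4 hyperoxia libraries. In C57 it averaged 3.75 FPKM in hyperoxia and 4.03 FPKM in normoxia. Gm22079, a small nuclear RNA inside Wars, was listed at 0 in all 4 hyperoxia libraries and at 1.37 to 4.06 FPKM in normoxia (adjusted p = 0.0242), a length at which few reads carry the value.

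Among the remaining called protein-coding genes, Efemp1, a fibulin in the list of fibroblast and interstitial matrix, fell, with 2.71, 1.82, 3.40 and 2.73 FPKM in hyperoxia and 4.6, 5.78, 5.25 and 5.6 FPKM in normoxia (log2 change -0.90 ± 0.14, adjusted p = 0.0257). Cdkn2d, the p19 inhibitor of cyclin-dependent kinases and a member of the cell cycle list, rose, with 18.3, 19.8, 20.1 and 19.1 FPKM in hyperoxia and 13.6, 14.0, 12.2 and 10.7 FPKM in normoxia (log2 change 0.60 ± 0.10, adjusted p = 0.0362). D430019H16Rik rose to between 10.1 and 13.1 FPKM in hyperoxia, against 6.09 to 7.29 FPKM in normoxia (adjusted p = 0.0106). Gtdc1, a glycosyltransferase-like gene, and Zbed5 rose as well, at 3.41 to 4.11 and 2.39 to 3.33 FPKM in hyperoxia and 2.34 to 2.86 and 1.37 to 1.97 FPKM in normoxia (adjusted p = 0.0374 and 0.0400).

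Just outside the threshold lay Gas7, Grhpr and Riiad1, each with an adjusted p of 0.0516 in limma. Gas7 was at 7.62 to 11.6 FPKM in hyperoxia and 13.9 to 17.5 FPKM in normoxia, and Grhpr, the glyoxylate reductase, at 3.94 to 6.09 and 7.65 to 10.8 FPKM. Riiad1 was at 8.94 to 18.7 FPKM in hyperoxia and 1.85 to 6.44 FPKM in normoxia, which is apart in the other direction. Bmpr1b, a BMP receptor, was next, at 0.297 to 0.735 and 1.32 to 1.91 FPKM (limma adjusted p = 0.0547).

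No antioxidant, immediate early or clock gene passed the adjustment. Of 28 antioxidant genes 8 were higher at an unadjusted p, with a median of 0.24, among them Gpx1, a glutathione peroxidase, at 38.1 to 50.4 FPKM in hyperoxia and 28.5 to 33.8 FPKM in normoxia (limma adjusted p = 0.120). Of 13 immediate early genes 4 were higher, including Egr1, an activity-induced transcription factor, at 14.7, 17.9, 15.1 and 8.16 FPKM in hyperoxia and 4.68 to 7.54 FPKM in normoxia (limma adjusted p = 0.0894). Per2, a clock repressor, was at 0.962 to 1.76 FPKM in hyperoxia and 1.82 to 3.07 FPKM in normoxia (limma adjusted p = 0.117). The median of the 17 clock genes was -0.06 in BALBc and 0.37 in C57, and 8 of the 17 differed between the strains' responses at an unadjusted p. The C57 value rests on some libraries: the mean of the list was 4.04, 4.05, 3.71 and 3.70 (log2) in C57 hyperoxia replicates 1 to 4 and 3.44, 3.48, 3.66 and 3.67 in C57 normoxia, so replicates 3 and 4 of the groups lay close together. The hour at which each retina was taken is not given in the sources used here.

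No gene passed the adjustment for a difference between the BALBc and C57 responses, with 1430 (9.56%) at an unadjusted p under 0.05 in limma. The C57 groups also differed in sex type, so strain and sex cannot be told apart in these differences. Within C57, 50 genes (0.334%) were called for hyperoxia against normoxia, and none of the 24 BALBc genes was among them. Of those 24, 21 had a log2 change of the same sign in C57, such as Cldn5 (-0.78), Tmlhe (-0.34) and Sdhd (0.27), while D430019H16Rik, Cdkn2d and Vash1 were at -0.02, -0.11 and -0.14 in C57. For these 3 the unadjusted limma p of the difference was 0.000127, 0.000213 and 0.000188, and the adjusted p was 0.245 for each. Since the 24 genes were chosen for their BALBc change, a larger change in BALBc than in C57 among them is no evidence of its own.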

How the data were processed

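Total RNA of whole retina was sequenced in 16 libraries, 4 in each of 4 groups. The authors deposited FPKM values per gene. HISAT2 2.0.5, featureCounts 1.5.0-p3 and the build GRCm38 (mm10) are named, with no further settings, per the submitters' processing notes. The strand setting is not given in the sources used here, and 7 of the 24 called genes overlap another annotated gene.

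Of 54532 genes, 54495 matched GENCODE release 21 by identifier, and 27 symbols stored as calendar dates were put back. Where a symbol named more than 1 gene, the more abundant was used, and older symbols in the lists were matched to the table. Values were taken as log2(FPKM + 0.5), which understates the change of genes at low level, and a gene was tested if 4 or more libraries reached 1 FPKM (14953, of which 12210 protein-coding). All 4 groups were fitted in limma 3.58.1 (R 4.3.3) with a mean-variance trend and Benjamini-Hochberg adjustment over all tested genes. The fit had 12 residual degrees of freedom and was tested on simulated data. Standard errors (SE) are from this fit.

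Whole reads could be recovered from the FPKM steps. Between 97.1% and 97.5% of values up to 1000 reads came out whole within 0.01, and a count test on those reads (limma voom) called 29 genes.

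The members and gene lists were chosen with earlier results of these data known. The text draws on all called genes, a list of 51 fixed genes, the 4 members of each list with the smallest p and the 15 genes next beyond the threshold. Not every gene so named is reported here. Xist and Ddx3y were added as a check of sex. Replicate numbers did not pair the libraries and were not used as a block. Promoters are from RefSeq on GRCm38.p6.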

Additional observations from a re-analysis of the deposited data

Results flagged for a closer look

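In 21 of 374 groups of 4 libraries (5.61%), the highest or lowest library stood far from the other three, where chance alone separates about 1 in 20 groups. In hyperoxia replicate 1, Snrpg was at 17.9 FPKM (others 20.4 to 20.9), Cyc1, cytochrome c1, at 67.9 FPKM (others 77.2 to 79.0) and Acat1 at 39.7 FPKM (others 56.6 to 59.6). Its list means (log2) were 7.47 for outer segment structure (others 7.92 to 8.0), 4.22 for the translocon (others 4.39 to 4.43) and 2.50 for serine and one-carbon genes (others 2.34 to 2.37). In hyperoxia replicate 2, Cryga, a lens crystallin, was at 125 FPKM (others 3.93 to 7.11). In hyperoxia replicate 3, Hba-a2 was at 3.81 FPKM (others 0.402 to 0.721). In hyperoxia replicate 4, Fabp7 was at 53.4 FPKM (others 28.3 to 28.7), Pfkl at 17.2 FPKM (others 19.5 to 19.9), and the amacrine list mean at 2.73 (others 3.29 to 3.33).

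In normoxia replicate 1, the mean of the mitochondrial genome list was 7.48 (others 7.89 to 7.94). In normoxia replicate 2, Pdk1 was at 3.15 FPKM (others 2.89 to 2.92) and C1qb at 8.74 FPKM (others 6.19 to 6.52), and the list means of complex III and antioxidant genes were 6.10 (others 5.95 to 5.97) and 4.36 (others 4.21 to 4.22). In normoxia replicate 4, F630040K05Rik was at 3.26 FPKM (others 1.64 to 1.90), Sdha at 53.9 FPKM (others 44.4 to 44.8), Glul at 321 FPKM (others 295 to 298), Gas7 at 17.5 FPKM (others 13.9 to 14.5), and the rod list mean at 8.68 (others 8.42 to 8.44).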

How the results depend on the processing

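The count of 24 called genes was sensitive to the choice of libraries and model. It ranged from 1 to 284 when 1 library was left out. It was 667 without hyperoxia replicates 1 and 4 (304 higher, 363 lower), 22 without replicates 2 and 3 (6 higher, 16 lower, 7 genes shared with the 24), and 3 with the BALBc libraries alone. Array quality weights, which gave libraries weights from 0.3303 to 3.69, called 2457 genes (1340 higher, 1117 lower), and a rod covariate called 1119 (738 higher, 381 lower). TPM scaling called 108 (54 each way) and shifted the median log2 change of all genes to -0.1469, quantile normalization called 64 (42 higher, 22 lower), a sex covariate 39, protein-coding genes only 47, and a floor of 5 FPKM 30 (22 higher, 8 lower). The female BALBc libraries alone, with the C57 libraries kept in the fit and chosen after seeing the data, called 2. Removing the length trend, also chosen then, called 27. The cause of these shifts was not tested. The number of genes differing in response between the strains, 0 in limma with 1430 at an unadjusted p under 0.05, was 3473 with array weights and 7 with the rod covariate, and ranged from 0 to 1 when 1 library was left out.

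With the replicate number as a block, 36 genes were called, 10 of them among the 24. The numbers did not pair the libraries: the deviations of same-numbered libraries correlated at 0.0725, 0.2163, -0.0704 and -0.0159, and not every library correlated best with its own number.

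Of the named genes' log2 changes under all alternatives, 3936 kept direction and side of the threshold, 374 passed it newly and 260 lost it. Most named genes were not called in the main fit, so the 3936 include many that stayed uncalled. All 260 losses fell on the called genes, since only these could lose the threshold. Among the called genes, F630040K05Rik passed in 33 of 34 alternatives, while Gtdc1 and Zbed5 passed in 18 of 35 each. A further 5 log2 changes reversed sign. Without hyperoxia replicates 1 and 4, Gnat1 was at 0.0944. Without replicates 2 and 3, mt-Nd1 was at -0.0284, Grm6 at 0.15, Rgr at -0.0919 and Dct at -0.0502. List medians moved beyond the spread of libraries in 155 pairs of list and alternative and not in 2004. The 4 libraries per group limit what can be called, and genes near 1 FPKM rest on few reads.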
